A study of Mus musculus with 6 samples.

Results

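The genes described here encode proteins that hold back the growth kinase complex mTORC1 or the cap-dependent translation it promotes: the 4E-BPs (Eif4ebp1, Eif4ebp2 and Eif4ebp3), the sestrins (Sesn1, Sesn2 and Sesn3), the REDD proteins (Ddit4 and Ddit4l) and DEPTOR (Deptor). These 9 genes were taken by symbol from the annotation of the array, using probe sets that name a single gene and taking the brightest one, by its mean over the 6 arrays, where a gene has several. Each of 8 genes had 1 such probe set, out of 19936 genes measured in this way. Eif4ebp3 was not measured by this rule, because its only probe set is also annotated to Ankhd1, and it is not analysed here.

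The samples were colon epithelium of male mice, 8 weeks old, on the C57BL/6J background: 3 arrays from mice lacking Sel1L in enterocytes, labelled Sel1L-delta-IEC, and 3 arrays from wild type mice. In the knockout, Sel1l exon 6 lay between loxP sites and was removed by a Cre recombinase driven by the villin-1 promoter, which is active in intestinal epithelial cells, and the lacZ-neo cassette of the targeted allele had been deleted beforehand by a cross with βActin-FLPe mice. Whether the wild type mice carried a floxed allele or Cre is not given in the labels, nor do they say that each array is a mouse of its own, so p-values measure the spread between arrays, which may be technical. Sel1L is the partner of the ubiquitin ligase Hrd1 in the degradation of misfolded proteins of the endoplasmic reticulum (ER), and the series asks how its loss bears on the ER stress sensor IRE1α.

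mTORC1 sits on the lysosome and, when amino acids and growth factors are plentiful, phosphorylates the 4E-BPs, which then release the cap-binding protein eIF4E so that capped mRNAs can be translated. Sestrins act further upstream: they bind GATOR2, an activator of the amino acid arm, and Sesn2 senses leucine. REDD1, the product of Ddit4, acts through the TSC complex, and DEPTOR binds the mTOR kinase itself. Eif4ebp1, Sesn2 and Ddit4 are known targets of ATF4, the transcription factor whose translation rises when eIF2α is phosphorylated, for example by the ER stress kinase PERK. Sesn1 and Sesn2 are also known p53 targets, Sesn3 a FoxO target, and Ddit4 a target of the hypoxia factors and of the glucocorticoid receptor.

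Values are log2 RMA levels, in which 1 unit is a 2-fold difference, and changes are Sel1L knockout minus wild type with the standard error (SE) of limma, a linear model with moderated variances. A gene was called at a Benjamini-Hochberg adjusted p under 0.05 over all 19936 genes, and 1.63% of them were called. Array medians ran from 6.32 to 6.36. Sel1l read 8.70, 9.06 and 8.66 in the knockout arrays, against 9.45, 9.67 and 9.54 in the wild type arrays, with no overlap (limma adjusted p = 0.018; exact two-sided permutation p = 0.1, the smallest that 3 arrays against 3 can give). Its call was lost when knockout array 1 or 3 was left out, or wild type array 1 or 2, with an adjusted p of 0.087 at most. Which exons its probes cover is not given in the sources used here, so a probe outside exon 6 may still read the shortened transcript. All 12 colon epithelium markers, such as Epcam, Cdh1 and Cdx2, lay above the median gene level of 6.67, compared with 2 of 11 leukocyte, 4 of 8 fibroblast, 1 of 8 muscle, 0 of 7 endothelial, nerve and glial and 1 of 4 pancreatic markers. The mean level of the epithelial list was 11.85 to 11.93 in the knockout arrays and 11.87 to 11.98 in the wild type arrays. Of its 12 markers, 6 were higher and 6 lower in the knockout. Unadjusted limma p was under 0.05 in 4 and the groups did not overlap in 5, beside 13.3% and 19.4% of all genes. Means of the pancreatic list did not overlap, at 6.15 to 6.22 in the knockout and 6.23 to 6.45 in wild type. Those of the other marker lists overlapped. Of all these markers, the leukocyte gene Ly6g and the pancreatic gene Cela1 were called, both lower in the knockout, and the part of other cells in the results was not tested. In these bulk arrays, fewer cells of a type and less RNA per cell cannot be told apart.

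Of the 8 brakes, 1 was called: Eif4ebp1 rose in the knockout, as did 0.918% of all genes, while none of the 8 fell, as 0.712% of all genes did. Ddit4, Sesn2 and Deptor had higher knockout levels whose groups did not overlap but did not pass the test over all genes, and Eif4ebp2, Sesn1, Sesn3 and Ddit4l differed by at most 0.12 on the log2 scale. The median change over the 8 genes was 0.11, beside 0.019 over all genes. The groups did not overlap in 5 of the 8 genes, all higher in the knockout, a pattern that 11.4% of all genes showed in that direction, 7.98% in the other and 19.4% in either. At an unadjusted p under 0.05 there were 4 of the 8, beside 13.3% of all genes. The plot of levels by array shows these patterns gene by gene.

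**Figure D1:**
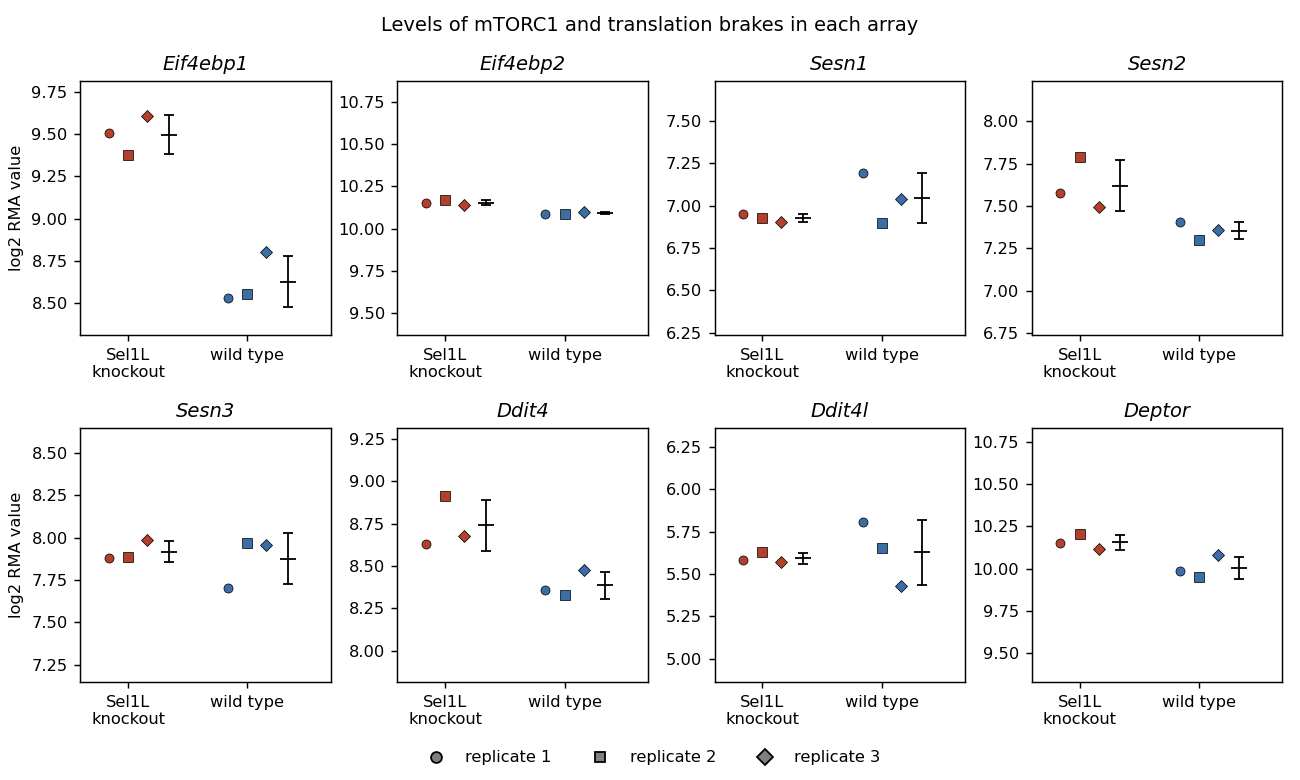
Log2 RMA value of each of the 8 measured genes in the Sel1L knockout (red, left) and wild type (blue, right) arrays, with symbols for the replicate numbers and the mean ± SD (n = 3) beside the points. All panels span the same log2 range. Eif4ebp1 stands apart, at 9.37 to 9.61 in the knockout arrays and 8.53 to 8.80 in the wild type arrays.

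Among the 4E-BPs, the direct brakes on eIF4E, the change was far larger for Eif4ebp1 than for Eif4ebp2. Eif4ebp1 read 9.50, 9.37 and 9.61 in knockout arrays 1, 2 and 3, against 8.53, 8.55 and 8.80 in wild type arrays 1, 2 and 3. Each knockout array lay well above each wild type array, and the gap between the groups was larger than the range within either. It averaged 9.50 ± 0.12 in the knockout and 8.63 ± 0.15 in wild type (SD over 3 arrays). The change was 0.87 ± 0.093 (SE) or 1.82-fold, with a 95% interval of 1.57-fold to 2.12-fold (limma adjusted p = 0.0065). This change ranked 37 among 19936 genes from the largest rise. The call held with each of the 6 arrays left out in turn, with limma adjusted p between 0.0049 and 0.039 and changes of 0.81 to 0.95.

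Eif4ebp2, which encodes the 4E-BP best known from the nervous system, read 10.15, 10.17 and 10.14 in the knockout arrays, against 10.09, 10.09 and 10.10 in the wild type arrays. The groups did not overlap, but the distance between them was small, with a change of 0.061 ± 0.054 and a 95% interval of -0.063 to 0.19 (limma adjusted p = 0.70). A change of Eif4ebp2 as large as that of Eif4ebp1 thus lies outside its interval. Taken array by array, the difference Eif4ebp1 minus Eif4ebp2 was higher in the knockout by 0.81 ± 0.11 (SE from the spread of the arrays), and the 3 knockout arrays lay above the 3 wild type arrays. The exact two-sided permutation p was 0.1, the smallest possible, and 0.25 after adjustment over the 5 paralog pairs that could be compared.

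**Figure D2:**
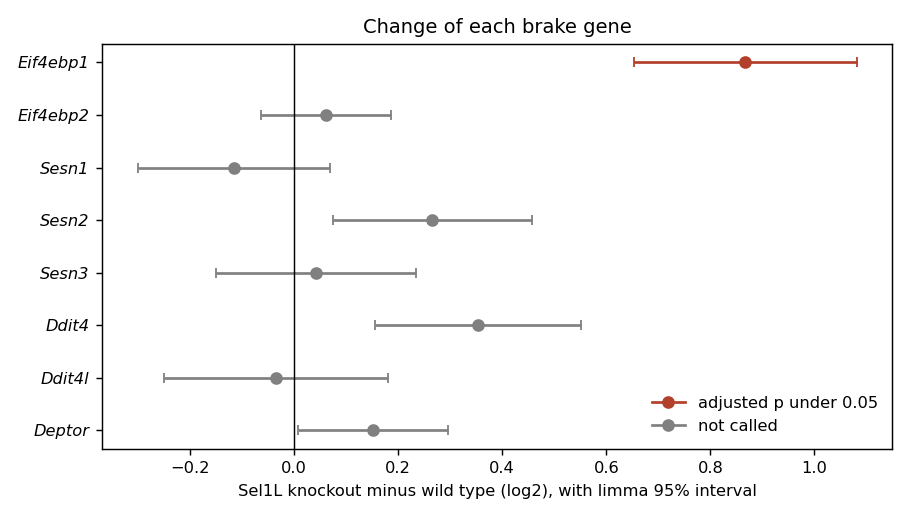
Log2 change of each gene (knockout minus wild type, horizontal axis) as points with the limma 95% interval, not adjusted for the number of genes. Eif4ebp1, in red, was called at 0.87, while the other 7 genes, in grey, were not called and their estimates lie between -0.12 and 0.35.

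The REDD genes encode stress-induced proteins that restrain mTORC1 through the TSC complex. Ddit4 read 8.63, 8.91 and 8.68 in knockout arrays 1, 2 and 3, against 8.36, 8.33 and 8.48 in wild type arrays 1, 2 and 3. All 3 knockout arrays were above all 3 wild type arrays, with knockout array 2 the highest and the other two nearer to wild type array 3. The change was 0.35 ± 0.087, or 1.28-fold with a 95% interval of 1.11-fold to 1.47-fold, and it was not called (limma adjusted p = 0.11, unadjusted p = 0.0033). Only 1.60% of all genes had a larger rise. Ddit4 passed the threshold when limma's prior followed the intensity (adjusted p = 0.0497) and when the dimmest 50% of genes were left out (adjusted p = 0.046), and without knockout array 2 its change was 0.27 (adjusted p = 0.22).

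Ddit4l, which encodes the related protein REDD2, was the dimmest of the 8 genes, with a mean of 5.61 that lay above only 31.9% of all genes. It read 5.58, 5.63 and 5.57 in the knockout arrays, against 5.80, 5.65 and 5.43 in the wild type arrays. The knockout arrays fell inside the wild type range, and the change was -0.035 ± 0.094 (limma adjusted p = 0.92), with a 95% interval of -0.25 to 0.18, and 0.053 without wild type array 1. The change of Ddit4 exceeded that of Ddit4l by 0.39 ± 0.16, but the per-array differences of knockout and wild type overlapped (exact permutation p = 0.2, adjusted p = 0.33 over the 5 pairs).

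The 250 bases before the RefSeq start of Ddit4 (chr10:59951771-59952020, minus strand) and of Ddit4l (chr3:137623422-137623671, plus strand), from RefSeq in GRCm38.p6, are shown to set the REDD gene whose groups separated beside its paralog whose groups overlapped. Capitals mark matches on either strand to CCAAT (the NF-Y box, read as ATTGG on the other strand) and to ACGTG (a form of the hypoxia element core). The other form of that core, GCGTG, was neither searched nor marked.
Ddit4: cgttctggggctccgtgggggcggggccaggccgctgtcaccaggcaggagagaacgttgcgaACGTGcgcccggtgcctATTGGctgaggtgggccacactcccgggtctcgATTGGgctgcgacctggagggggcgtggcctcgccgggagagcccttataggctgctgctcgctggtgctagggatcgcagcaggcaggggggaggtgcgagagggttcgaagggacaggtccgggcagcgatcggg
Ddit4l: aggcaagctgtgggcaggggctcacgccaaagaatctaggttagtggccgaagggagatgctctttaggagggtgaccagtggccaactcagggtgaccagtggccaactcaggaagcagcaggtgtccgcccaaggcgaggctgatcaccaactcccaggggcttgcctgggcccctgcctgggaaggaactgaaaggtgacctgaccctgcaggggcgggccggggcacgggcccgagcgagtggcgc
Ddit4 held 2 CCAAT matches, beginning 170 and 137 bases before the start, and 1 ACGTG match beginning 187 bases before it, and no match overlapped another, while Ddit4l held neither. Of 32851 mouse windows of the same length, 33.8% held CCAAT and 16.6% ACGTG. Also searched on both strands were TGATGNAA, an ATF4-C/EBP composite element (3.45% of windows), TGACGTGG, an element of XBP1 and ATF6 that itself contains ACGTG (0.563%), and GTAAACA, a FoxO element (3.17%). None of these 3 elements occurred in the 7 windows available for 6 of the genes, 2 of them for Sesn1. ACGTG also occurred in the window of Eif4ebp2, beginning 182 bases before the start, which held no CCAAT. Each Sesn1 window held 1 CCAAT match and no ACGTG. These matches are letters in a window and were not tested for binding. Eif4ebp1, Eif4ebp3 and Deptor were not among the 6 genes with windows.

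The sestrins, stress-induced inhibitors of GATOR2, gave no call among 3 genes with limma, and 1 of them had an unadjusted p under 0.05. That gene was Sesn2, the leucine-sensing member, which read 7.58, 7.79 and 7.50 in knockout arrays 1, 2 and 3, against 7.41, 7.30 and 7.36 in wild type arrays 1, 2 and 3. The groups did not overlap, and knockout array 2 was again the highest while knockout array 3 stood only just above wild type array 1. The change was 0.27 ± 0.083, or 1.20-fold with a 95% interval of 1.05-fold to 1.37-fold (limma adjusted p = 0.20, unadjusted p = 0.012), and 3.16% of all genes had a larger rise. Without knockout array 2 it was 0.18 (adjusted p = 0.38).

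Sesn1 read 6.95, 6.93 and 6.90 in the knockout arrays, against 7.19, 6.90 and 7.04 in the wild type arrays, a change of -0.12 ± 0.081 (limma adjusted p = 0.61). Sesn3 read 7.88, 7.88 and 7.99 in the knockout arrays, against 7.70, 7.97 and 7.96 in the wild type arrays, a change of 0.042 ± 0.084 (limma adjusted p = 0.89). In both genes the groups overlapped, and the SD was smaller in the knockout (0.025 and 0.060) than in wild type (0.15 in each). The 95% intervals were -0.30 to 0.070 for Sesn1 and -0.15 to 0.23 for Sesn3, so a rise of the size of Eif4ebp1's lies outside both. Without wild type array 1 the estimate of Sesn3 turned to -0.044 and that of Sesn1 was -0.041, while without wild type array 2 Sesn1 stood at -0.19.

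Paired within arrays, Sesn2 minus Sesn1 was higher in the knockout by 0.38 ± 0.10, with no overlap between the groups (exact permutation p = 0.1, adjusted p = 0.25 over the 5 pairs). Sesn2 minus Sesn3 was higher by 0.22 ± 0.16 and Sesn1 minus Sesn3 lower, at -0.16 ± 0.17, and both overlapped (exact permutation p = 0.3 and 0.4, adjusted p = 0.38 and 0.40). Sesn2 minus Sesn3 was 0.12 without knockout array 2 and 0.33 without wild type array 1, and Sesn1 minus Sesn3 was 0.0038 without wild type array 1 and -0.28 without wild type array 2. With 3 arrays a group, no paralog comparison could pass 0.05.

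Upstream windows of Sesn2 (chr4:132510457-132510706, minus strand) and Sesn3 (chr9:14276051-14276300, plus strand) in GRCm38.p6, again 250 bases from RefSeq with CCAAT and ACGTG matches in capitals, are shown to set the sestrin whose groups separated beside one whose groups overlapped.
Sesn2: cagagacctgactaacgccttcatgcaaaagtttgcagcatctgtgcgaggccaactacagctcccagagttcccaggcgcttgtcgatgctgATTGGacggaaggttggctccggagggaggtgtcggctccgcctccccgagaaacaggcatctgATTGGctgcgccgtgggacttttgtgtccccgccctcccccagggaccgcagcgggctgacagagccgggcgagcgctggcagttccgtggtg
Sesn3: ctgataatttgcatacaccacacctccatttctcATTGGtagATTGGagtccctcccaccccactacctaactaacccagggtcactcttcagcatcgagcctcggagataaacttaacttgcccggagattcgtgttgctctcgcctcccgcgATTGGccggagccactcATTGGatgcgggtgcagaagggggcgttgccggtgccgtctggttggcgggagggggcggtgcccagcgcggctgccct
Sesn2 held 2 CCAAT matches and Sesn3 held 4, none of them overlapping, and ACGTG occurred in neither.

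**Figure D3:**
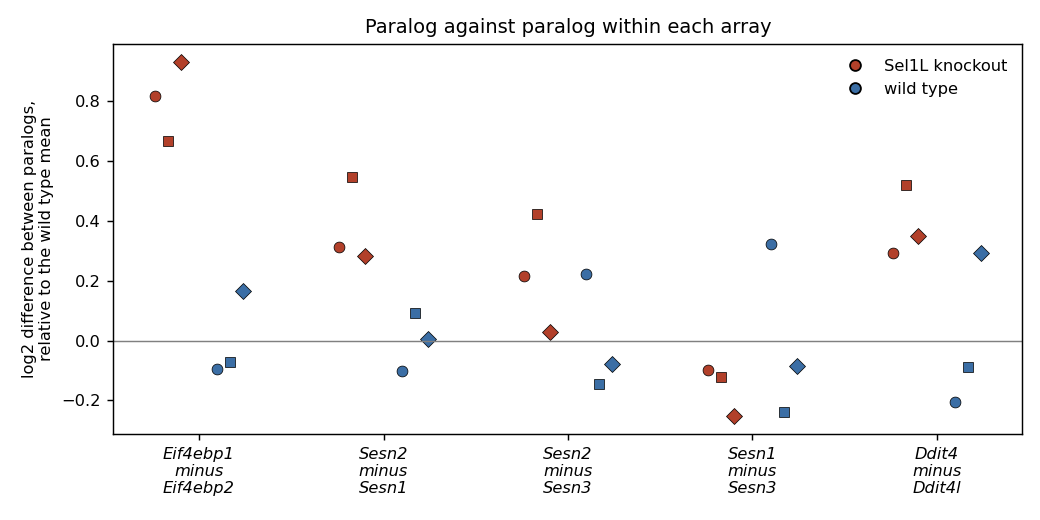
Log2 difference between paralogs within each array, relative to the wild type mean of that difference (vertical axis), for the Sel1L knockout (red, left of each pair) and wild type (blue); circles, squares and diamonds are replicates 1, 2 and 3. The groups separate for Eif4ebp1 minus Eif4ebp2, at 0.67 to 0.93 in the knockout and -0.095 to 0.17 in wild type, and for Sesn2 minus Sesn1, and overlap in the other 3 pairs.

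Deptor, which encodes the inhibitor bound to mTOR itself, read 10.15, 10.20 and 10.11 in the knockout arrays, against 9.98, 9.95 and 10.08 in the wild type arrays. The groups did not overlap, though knockout array 3 lay just above wild type array 3. The change was 0.15 ± 0.063, or 1.11-fold (limma adjusted p = 0.35, unadjusted p = 0.041), and 11.7% of all genes had a larger rise. Its level was high, with 93.7% of genes below it, as was that of Eif4ebp2, although levels of different probe sets are not comparable per transcript.

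The arrays did not order the genes alike. Knockout array 2 was the highest knockout array for Ddit4, Ddit4l, Sesn2, Deptor and Eif4ebp2 but the lowest for Eif4ebp1. It also had the highest mean over 12 glucocorticoid target genes, at 8.78, against 8.61 and 8.55 in knockout arrays 1 and 3 and 8.56, 8.61 and 8.60 in wild type arrays 1, 2 and 3, and the part of this in the levels of Ddit4 was not tested. Wild type array 3 was the highest wild type array for Eif4ebp1, Eif4ebp2, Ddit4 and Deptor. It also had the highest wild type mean over the ATF4 and CHOP targets described next.

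Of 12 measured partners of the brakes, which bind them or belong to the complex or step they act on, 1 was called, namely Sec13. Over all genes, 1.63% were called and 13.3% had an unadjusted p under 0.05. Sec13, a subunit of GATOR2 that also serves the COPII coat of ER vesicles and the nuclear pore, rose in the knockout. It read 9.94, 9.93 and 9.95 in the knockout arrays, against 9.57, 9.65 and 9.60 in the wild type arrays. The groups lay well apart, with a change of 0.33 ± 0.056 (limma adjusted p = 0.028), but the call ended with each of the 6 arrays left out (adjusted p up to 0.12). The other 11 partners, namely Eif4e, the GATOR2 subunits Mios, Wdr24, Wdr59 and Seh1l, the Tsc1, Tsc2 and Rheb switch, and Mtor, Rptor and Mlst8 of the complex itself, had changes between -0.027 and 0.075. Among them limma's smallest adjusted p was 0.67, and 0 had an unadjusted p under 0.05. In the wider list of mTORC1 subunits, activators and kinases, 1 of 25 measured genes was called, higher in the knockout, with a median change of 0.051, and that gene was again Sec13. Cap-binding and translation control genes gave 0 calls among 19 with limma and 0 at an unadjusted p under 0.05, with a median of 0.0051. The smallest p there belonged to Eif4e3, an eIF4E relative, at 0.14 ± 0.078 (limma adjusted p = 0.50). Ribosomal protein genes have 5′ TOP mRNAs that are translated under mTORC1 control, which mRNA levels do not measure. In mRNA level, these genes gave 0 calls among 13 and 0 at an unadjusted p under 0.05. Their smallest p belonged to Rplp1, at 0.12 ± 0.061 (limma adjusted p = 0.46), whose second probe set read -0.038.

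Among 22 other measured mTORC1 inhibitors, 2 were called, both higher in the knockout, beside 1.63% of all genes called. An unadjusted p under 0.05 was seen in 7, some higher and some lower, beside 13.3% of all genes. Of the 22 changes, 13 were positive and 9 negative, from -0.35 to 0.85, with a median of 0.014. Grb10, an adaptor that restrains insulin receptor signalling, read 6.46, 6.16 and 6.54 in the knockout arrays, against 5.67, 5.45 and 5.58 in the wild type arrays. The groups lay well apart, with a change of 0.82 ± 0.11 (limma adjusted p = 0.011), although leaving out knockout array 1 or wild type array 2 ended the call (adjusted p up to 0.059). Trib3, a pseudokinase that binds AKT and a known ATF4 and CHOP target, read 7.08, 7.16 and 7.16 in the knockout arrays, against 6.09, 6.13 and 6.62 in the wild type arrays. Its wild type array 3 stood above the other two, and the change of 0.85 ± 0.13 (limma adjusted p = 0.019) kept its call in 1 of the 6 fits that leave out an array, the one without that array (adjusted p up to 0.079 in the others).

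Eif4ebp1 rose beside a large part of the ATF4 and CHOP targets outside the brakes. Of 29 measured targets, 17 were called, all higher in the knockout, beside 0.918% of all genes called higher. Of the 29, 27 had an unadjusted p under 0.05, beside 13.3% of all genes. Groups did not overlap in 28, beside 19.4% of all genes. The median change was 0.58 and the range 0.084 to 2.65. The 4 with the smallest p were Aldh1l2 and Psat1, enzymes of folate and serine metabolism, at 2.65 and 1.22, Pck2, the mitochondrial PEPCK, at 1.38, and the transcription factor Atf5 at 0.84, and each kept its call with every array left out. The mean over the list was 9.07, 9.05 and 9.06 in knockout arrays 1, 2 and 3, against 8.14, 8.20 and 8.51 in wild type arrays 1, 2 and 3. Set among the 29, Eif4ebp1 had 9 genes with a larger change, Ddit4 had 21, Sesn2 had 26 and Deptor had 27, so Sesn2 and Ddit4 lay in the lower part of the list. Among 16 genes of eIF2 and its kinases and phosphatases, 10 were higher and 6 lower in the knockout, with changes from -0.35 to 0.54. An unadjusted p under 0.05 was seen in 7 of the 16, beside 13.3% of all genes. The groups did not overlap in 6, beside 19.4% of all genes, and 1 gene was called, namely Atf4 itself. It read 8.33, 8.35 and 8.37 in the knockout arrays, against 7.73, 7.80 and 7.91 in the wild type arrays, a change of 0.54 ± 0.066 (limma adjusted p = 0.0099) that missed the threshold without knockout array 1 (adjusted p = 0.052).

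**Figure D4:**
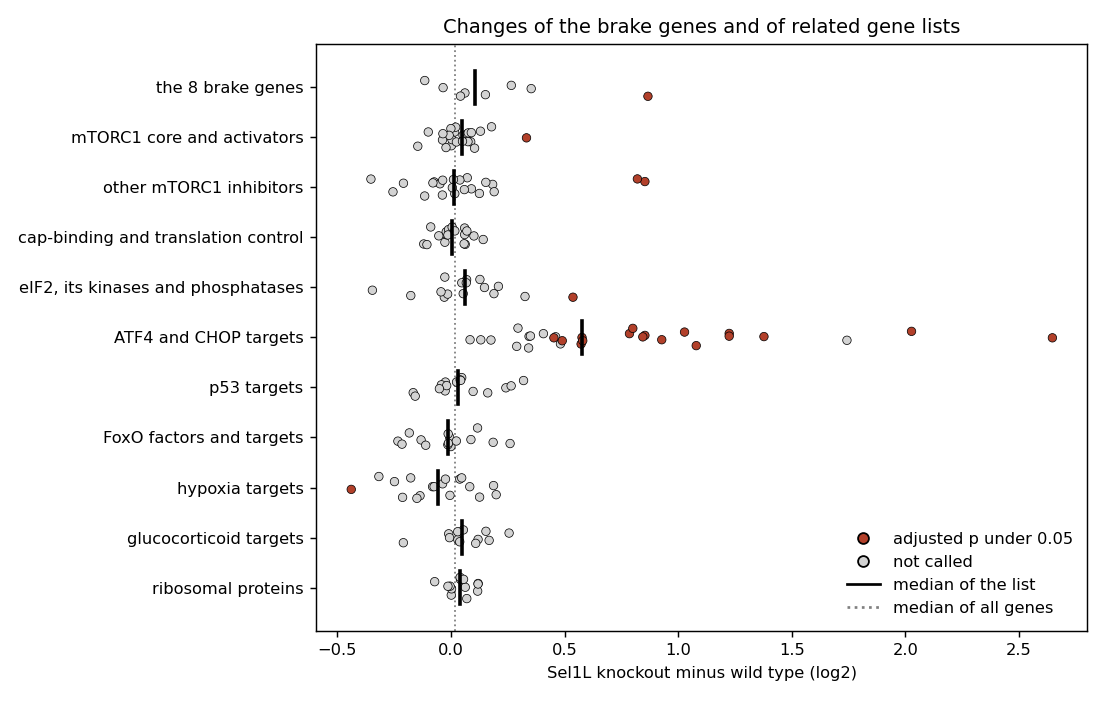
Log2 change of each gene (knockout minus wild type, horizontal axis) for the 8 brake genes and 10 related lists (rows), with called genes in red, others in grey, a bar at each list's median and a dotted line at the median of all genes. The ATF4 and CHOP targets lie to the right, with a median of 0.58, while the other lists are centred near the dotted line at 0.019. Trib3 is plotted in both of its lists.

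Over the lists for the other known regulators of these genes, 1 of 61 genes was called, or 1.64% beside 1.63% of all genes, and 16 had an unadjusted p under 0.05, or 26.2% beside 13.3% of all genes. For p53, 0 of 16 targets were called by limma and 5 had an unadjusted p under 0.05, with a median of 0.032, and the gene with the smallest p was the antiproliferative Btg2, at 0.24 ± 0.062 (adjusted p = 0.12). The mean over the p53 list was 7.54, 7.51 and 7.54 in knockout arrays 1, 2 and 3, against 7.48, 7.49 and 7.48 in wild type arrays 1, 2 and 3, a small difference without overlap. List means also did not overlap for the other mTORC1 inhibitors, at 8.14 to 8.17 in the knockout and 8.06 to 8.10 in wild type. That list includes Trib3 and Grb10, with changes of 0.85 and 0.82, while its median change was 0.014. Nor did the means of the eIF2 list, at 8.55 to 8.59 in the knockout and 8.46 to 8.53 in wild type. It includes Atf4, with a change of 0.54, and had a median change of 0.061. How far single genes set these means apart was not tested. For FoxO factors and targets, 0 of 15 were called by limma and 4 had an unadjusted p under 0.05, with a median of -0.011, and the smallest p was that of Foxo3, at -0.18 ± 0.067 (adjusted p = 0.28). For glucocorticoid targets, 0 of 12 were called by limma and 2 had an unadjusted p under 0.05, with a median of 0.046, and the smallest p was that of the zinc finger factor Zbtb16, at -0.21 ± 0.063 (adjusted p = 0.18). For hypoxia targets, 1 of 18 was called, lower in the knockout, and 5 had an unadjusted p under 0.05, with a median of -0.056. The called gene was Bnip3, a mitophagy receptor, at -0.44 ± 0.075 (limma adjusted p = 0.028). Its call held with 1 of the 6 arrays left out, knockout array 3, and its second probe set read -0.14.

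Apart from predicted genes, those whose levels followed Eif4ebp1 most closely over the 6 arrays were Wdr95 (Pearson r = 0.996), Surf4 (0.995) and Asns (0.995). Predicted genes, with symbols of Gm or LOC plus digits or ending in Rik, were left out of the ranking. Surf4 encodes a cargo receptor of the ER, and Asns the asparagine synthetase and is a known ATF4 target. Over arrays of only these genotypes, a difference between them in both genes raises such correlations, so the values are a description. Asns rose in the knockout by 1.22 ± 0.13 (limma adjusted p = 0.0068), while Surf4, at 0.28 ± 0.059 (limma adjusted p = 0.064), and Wdr95, at 0.18 ± 0.057 (limma adjusted p = 0.20), were not called.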

How the data were processed

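RNA of colon epithelium was hybridised to Affymetrix arrays. The authors deposited log2 values, and per the submitters' processing notes RMA was used, which corrects background, normalizes between arrays and summarises probes. The scale was read from the values. The RMA software and any genome build are not stated in these sources. Of 35556 probe sets, 21789 name 1 gene, 1621 several and 12146 none in the platform annotation. RefSeq gave current symbols for 21698 probe sets by gene identifier and 3 by accession, leaving 88 as annotated. Probe sets naming 1 gene gave 19936 genes, 1001 with over 1 probe set, each represented by the brightest.

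The genotypes were compared over the 6 arrays by limma (version 3.58.1, R 4.3.3; moderated linear model, no covariate), with Benjamini-Hochberg adjustment over all genes, and checked on simulated data. Single values used exact permutation tests. The number of arrays limits the precision. Correlations between arrays were 0.993 to 0.997. Genes named are the brakes, Sel1l and the 3 genes most like Eif4ebp1, with predicted genes left out. From each list, up to 4 called genes with the smallest p are named, or otherwise the single smallest. Markers and partners are named beyond this rule, the partners by role after list values were seen. The members and lists were chosen with earlier results of these data known. Alternatives were a replicate block, other normalizations, dim-gene filters, limma priors, array weights, other uses of probe sets and leaving out each array. Same-numbered arrays deviated together by correlations of -0.10, 0.15 and 0.15, so the numbers were not taken as pairs.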

Additional observations from a re-analysis of the deposited data

How the results depend on the processing

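Eif4ebp1 kept its call in 16 of 17 alternatives and lost it without variance moderation (adjusted p = 0.14), where 4 genes in all, 0 brakes and 0 genes of the pathway lists were called and Sel1l, at -0.74, had an adjusted p of 0.20. Against 325 genes and 1 brake, 598 genes and 2 brakes were called without the dimmest 50% of genes (324 higher, 274 lower in the knockout; Ddit4l then has no value), and 614 and 2 with an intensity trend, the second brake being Ddit4 in both. With all 35556 probe sets fitted together, 161 probe sets were called, a count of probe sets and not of genes. The pathway lists then had 10 called genes, all among the 21, and Sel1l, at -0.74, had an adjusted p of 0.073. Leaving out each array gave 69 to 303 genes, 1 brake throughout, 9 to 23 list genes, and Sel1l changes of -0.87 to -0.67. The genes numbered 96, 95 and 303 without wild type arrays 1, 2 and 3, and 69, 120 and 187 without knockout arrays 1, 2 and 3. Each of these fits had 1 array fewer, and why their counts differ was not tested. Without wild type array 1, Ddit4l (0.053), Sesn3 (-0.044) and Sesn1 minus Sesn3 (0.0038) changed sign; leaving out each array gave -0.14 to 0.053, -0.044 to 0.088 and -0.28 to 0.0038. The cause of the other changes was not tested. The replicate block called 217 genes, 1 brake (Eif4ebp1, adjusted p = 0.0099) and 19 list genes; the arrays share only a number, and not every array correlated best with its own number. Of 17 other named genes none changed sign, and of the 10 called, 5 kept the call with each array left out. The 1 called partner, Sec13, gave way to 0 called partners with the replicate block (adjusted p = 0.079), without moderation, with all probe sets together and with each array left out, and no other partner was called under any alternative. The counts for lists and partners were added as alternatives after seeing the data. With 3 arrays a group, small changes of the brakes cannot be told from none.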
